A study of Mus musculus with 5 samples.

Results

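The genes described here are the cyclins, the cyclin-dependent kinases (CDKs), their inhibitors, and the retinoblastoma, E2F and MuvB proteins that set the pace of the cell division cycle. They were taken by symbol from a fixed list of 48 genes. Of these, 47 had an expression value, among 16003 genes with a value in all. Expression is given as FPKM, a fragment count scaled by transcript length and by the mapped fragments of the library. In 45 of the 48 the value reached 1 FPKM in at least 1 library, and these 45 expressed members were tested. Cdkn1c and Cdkn2b were listed at 0 to 0.12 FPKM and stayed below that minimum, and Cdkn2a had no value.

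The cells were RAW264.7, an established mouse line of monocyte and macrophage type. Control cells carried Renilla luciferase alone, and CD137 cells carried Renilla luciferase and mouse Cd137, the co-stimulatory TNF receptor family member encoded by Tnfrsf9. The sources used here do not say how the sequences were introduced, or whether each line is 1 clone or a pool. The series has 5 samples, of which 1 control library (replicate 2) and 2 CD137 libraries (replicates 2 and 3) were analysed. Replicate 1 of either group was not used here.

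Depth was close to equal, with an estimated 18100000 fragments in the control and 0.983 and 0.988 of that in CD137 replicates 2 and 3. Tnfrsf9 was at 5.06 FPKM in the control and at 364 and 370 FPKM in the CD137 libraries. All 8 macrophage markers examined were expressed, but they did not shift together: 4 fell, 3 rose (Adgre1, Itgam and Ptprc) and 1 did not pass, with a median log2 change of -0.05. Their summed level was 3077 FPKM in the control and 1874 and 1917 FPKM in CD137 replicates 2 and 3, chiefly through Lyz2, which fell from 1692.9 FPKM to 646 and 669 FPKM. Their part in the results below was not tested. The 5 fibroblast markers and 4 lymphocyte markers stayed under 1 FPKM or had no value. Epithelial markers (Epcam, Krt8, Krt18, Cdh1) summed to 0.67 FPKM in the control, 6.28 in CD137 replicate 2 and 1.17 in CD137 replicate 3. The labels do not tie the libraries to separate cultures, so the p-values given below cover the variation among these libraries alone, and that may be technical.

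As background, a cell passes from G1 into S phase when D-type cyclins with Cdk4 or Cdk6, and then cyclin E with Cdk2, phosphorylate the retinoblastoma family (the pocket proteins) and so free the E2F factors to switch on genes of DNA synthesis. Cyclin A carries the cell through S phase, and cyclin B with Cdk1 drives mitosis, held back by the kinases Wee1 and Myt1 and released by the Cdc25 phosphatases. INK4 and CIP/KIP proteins inhibit the CDKs. The MuvB core acts as a repressor with E2F4 and a pocket protein (the DREAM complex), and with B-Myb and FoxM1 it activates genes of G2 and mitosis.

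Most of these regulators were lower in CD137 cells, by modest amounts. Of the 45 expressed members 24 fell, 9 rose and 12 did not pass, where "fell" and "rose" mean an adjusted p under 0.05 in limma, fitted to log2(FPKM + 1) of all 10720 expressed genes with Benjamini-Hochberg adjustment. Among all expressed genes 18.2% fell and 24.4% rose, 42.6% in either direction. Among the members 53.3% fell and 20% rose, 73.3% in either direction, but the members were chosen with earlier results of these data known. The median log2 change was -0.24 in the members and 0.03 over all expressed genes. The lowest member was Mybl2 at a log2 change of -1.24 and the highest Rb1 at 0.49. The RNA comes from whole cultures, so fewer cells in a phase and less RNA per cell cannot be told apart.

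The CD137 libraries lay close together. Their median absolute log2 difference over the members was 0.05, against a median absolute change from the control of 0.26; over all expressed genes these medians were 0.06 and 0.19. For 43 of the 45 members the control value lay outside the range of the CD137 values, and for 89.2% of all expressed genes. Cdc25a and Fzr1 were the exceptions. In 30 of the 45 members both CD137 libraries were below the control, against 40.2% of all expressed genes. With CD137 replicate 3 alone, 26 members were at least 1.1-fold lower than the control and 12 at least 1.1-fold higher. Over all expressed genes these shares were 27.4% and 34.9%. With CD137 replicate 2 alone the counts were 28 and 12 (27.2% and 34.8% of all expressed genes). The epithelial sum was above the control in both libraries, by less in replicate 3, and its part was not tested.

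With 1 control library its variation was not measured; the fit assumes that it varies as the CD137 libraries do, and an exact permutation test of 1 against 2 libraries cannot go below 0.333. In the limma fit of all 16003 genes with a value 0 members passed (smallest adjusted p = 0.0802), although 24 were lower and 8 higher at an unadjusted p under 0.05.

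**Figure D1:**
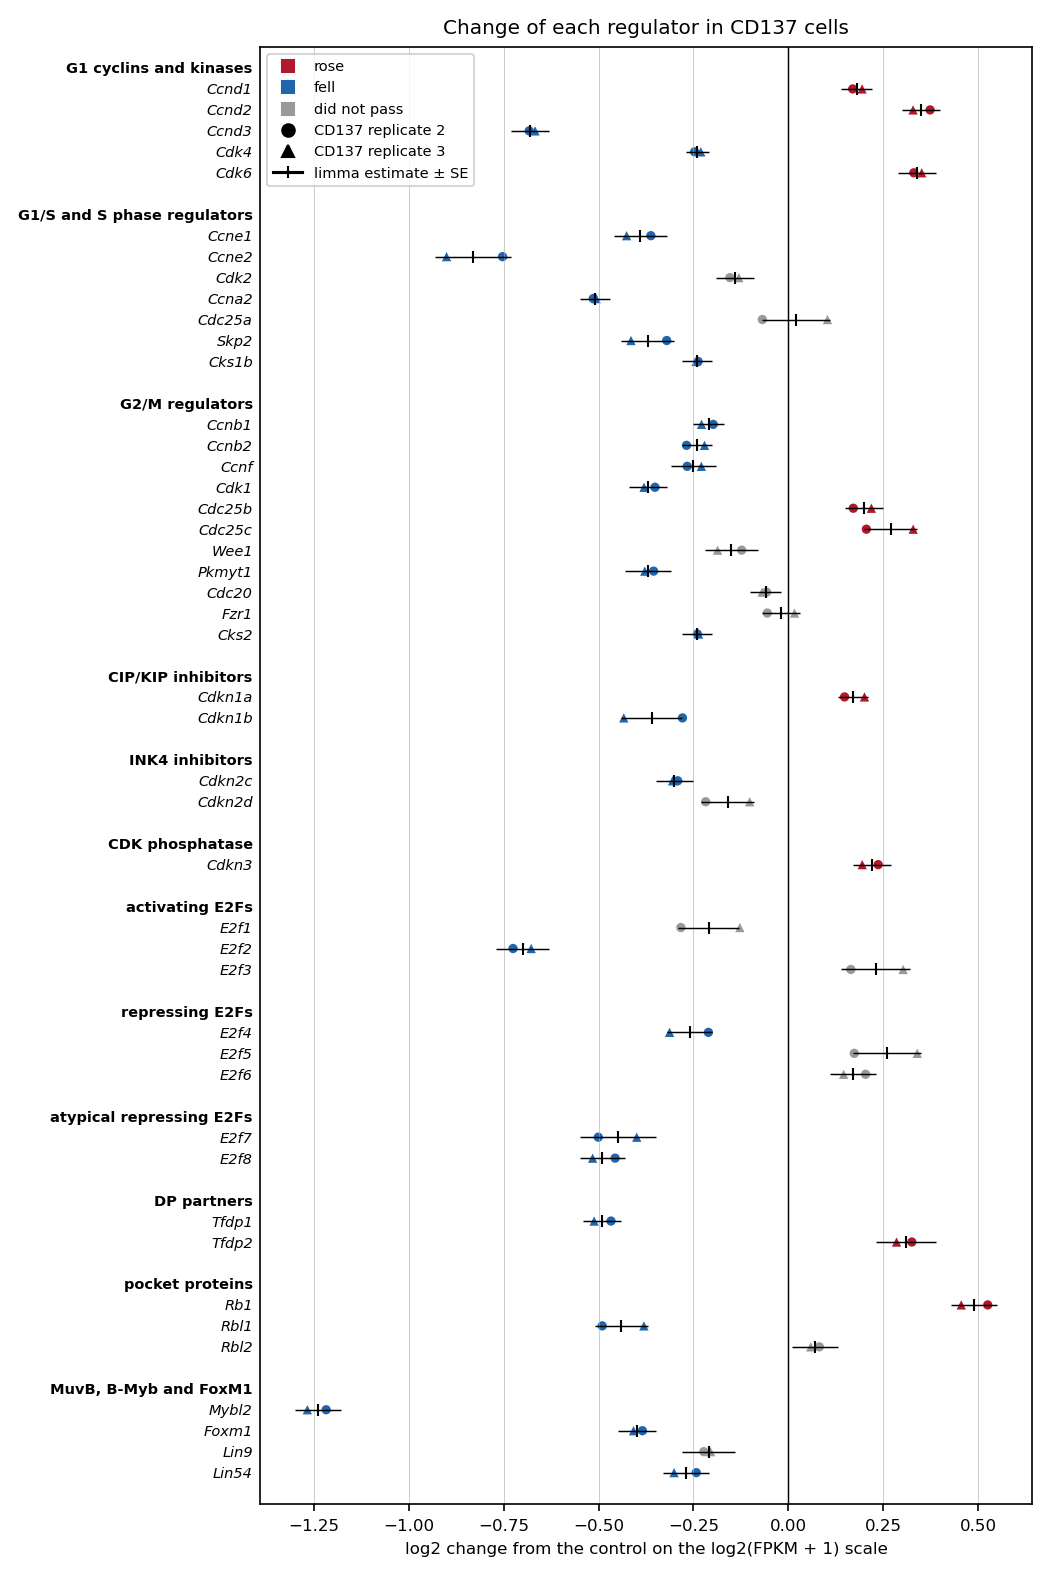
Change of each expressed member from the control, on the log2(FPKM + 1) scale. Circles and triangles are CD137 replicates 2 and 3, ticks with bars are limma estimates ± SE, and colours mark members that rose, fell or did not pass at an adjusted p of 0.05. Most points lie left of 0, with Mybl2 at -1.24 and Rb1 at 0.49 as the ends of the range.

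**Figure D2:**
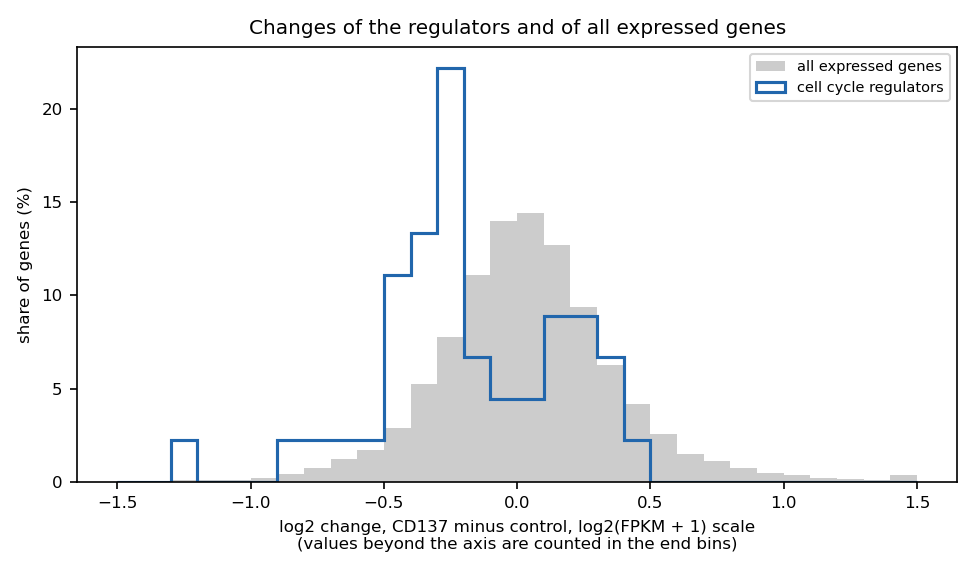
Share of genes (percent) by log2 change, CD137 minus control, for 45 cell cycle regulators (line) and all 10720 expressed genes (grey), in bins of the log2(FPKM + 1) scale. The regulators' median lies at -0.24 and that of all expressed genes at 0.03.

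The G1 cyclins and kinases split by paralog. All 5 passed, 3 higher and 2 lower, against 42.6% of all expressed genes that passed. Ccnd1, cyclin D1, was at 58.3 FPKM in the control and 65.7 and 66.9 FPKM in CD137 replicates 2 and 3, a log2 change of 0.18 ± 0.04 (SE, limma adjusted p = 0.0229; 0.0721 without limma's mean-variance trend). Ccnd2, cyclin D2, went from 18.2 FPKM to 23.8 and 23.1 FPKM, 1.29-fold higher. Ccnd3, cyclin D3, went the other way, from 28.8 FPKM to 17.6 and 17.8 FPKM, or 0.613 of the control. Its log2 change was -0.68 ± 0.05 (SE, limma adjusted p = 0.00152), the fourth lowest of the members.

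The D-type kinases divided in the same manner. Cdk4, the most abundant member, fell from 284 FPKM to 239 and 242 FPKM (0.847 of the control, limma adjusted p = 0.00586). Cdk6, its close paralog, was much lower and rose from 15.8 FPKM to 20.2 and 20.5 FPKM (1.28-fold, limma adjusted p = 0.00777). In each of these genes the control value lay outside the range of the CD137 values, as it did for 89.2% of all expressed genes. The summed FPKM of the 3 D-type cyclins was 105 in the control and 107 and 108 in the CD137 libraries, while Ccnd3 made up 27.4% of it in the control and 16.4% and 16.5% in the CD137 libraries. The Cdk4 and Cdk6 sum went from 300 to 260 and 263 FPKM, with Cdk6 at 5.28% of it in the control and 7.77% and 7.80% in the CD137 libraries.

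Regulators of the G1/S step and of S phase fell or did not pass. Of 7 members 5 fell (71.4%, against 18.2% of all expressed genes), 0 rose and 2 did not pass, with a median log2 change of -0.37. Ccne2, cyclin E2, was at 6.45 FPKM in the control and 3.42 and 2.99 FPKM in the CD137 libraries, 0.497 of the control (log2 change -0.83 ± 0.10 SE, limma adjusted p = 0.00419). It rests on 315, 163 and 148 fragments in the control and CD137 replicates 2 and 3, which gives a counting error of 0.12 on the log2 ratio. Ccne1, cyclin E1, fell from 10.3 FPKM to 7.76 and 7.38 FPKM, 0.738 of the control.

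Ccna2, cyclin A2, the partner of Cdk2 in S phase and of Cdk1 later, fell from 85.8 FPKM to 59.8 and 60.1 FPKM (log2 change -0.51 ± 0.04 SE, limma adjusted p = 0.00162). Skp2, the F-box protein that marks p27 for destruction, fell from 11.1 FPKM to 8.65 and 8.04 FPKM, and Cks1b, the small adaptor it needs for that, from 119 FPKM to 101 FPKM in both CD137 libraries. Cdk2 itself was at 32.7 FPKM against 29.3 and 29.8 FPKM and did not pass (limma adjusted p = 0.0663). Cdc25a, the phosphatase that activates Cdk2, stood at 8.29 FPKM in the control, between 7.86 and 8.98 FPKM in the CD137 libraries, so the groups overlapped.

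In G2 and mitosis the cyclins and Cdk1 fell, whereas the Cdc25 genes of this phase rose. Of 11 members 6 fell (54.5%), 2 rose (18.2%) and 3 did not pass, with a median log2 change of -0.21. Among all expressed genes 18.2% fell and 24.4% rose. Cdk1, the mitotic kinase, was at 38.3 FPKM in the control and 29.8 and 29.2 FPKM in the CD137 libraries (log2 change -0.37 ± 0.05 SE, limma adjusted p = 0.00482). Its cyclins Ccnb1 and Ccnb2 fell less, to 0.860 and 0.842 of the control, from 54.4 to 47.3 and 46.3 FPKM and from 73.0 to 60.4 and 62.5 FPKM. Ccnb1 did not pass without the mean-variance trend (limma adjusted p = 0.0543). Ccnf, cyclin F, a cyclin that binds no CDK and serves as an F-box protein, fell from 16.0 to 13.2 and 13.5 FPKM. Cks2, a paralog of Cks1b, fell from 52.6 to 44.4 and 44.5 FPKM, by the same share as Cks1b (0.845 of the control each).

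The enzymes that set the phosphorylation of Cdk1 went in both directions. Pkmyt1, which encodes the inhibitory kinase Myt1, fell from 15.0 FPKM to 11.5 and 11.3 FPKM (limma adjusted p = 0.0087). The other inhibitory kinase, Wee1, was at 10.4 FPKM against 9.46 and 9.01 FPKM and did not pass. Cdc25b rose from 34.7 to 39.2 and 40.5 FPKM (1.15-fold, limma adjusted p = 0.0289), and Cdc25c from 14.5 to 16.8 and 18.4 FPKM (1.22-fold, limma adjusted p = 0.0374). Without the mean-variance trend neither passed (limma adjusted p = 0.0707 and 0.0700). Both activators of the anaphase-promoting complex were nearly level: Cdc20 was at 54.9 FPKM against 52.8 and 52.3 FPKM, and Fzr1, which encodes Cdh1, at 32.0 FPKM against 30.8 and 32.4 FPKM. Neither passed.

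**Figure D3:**
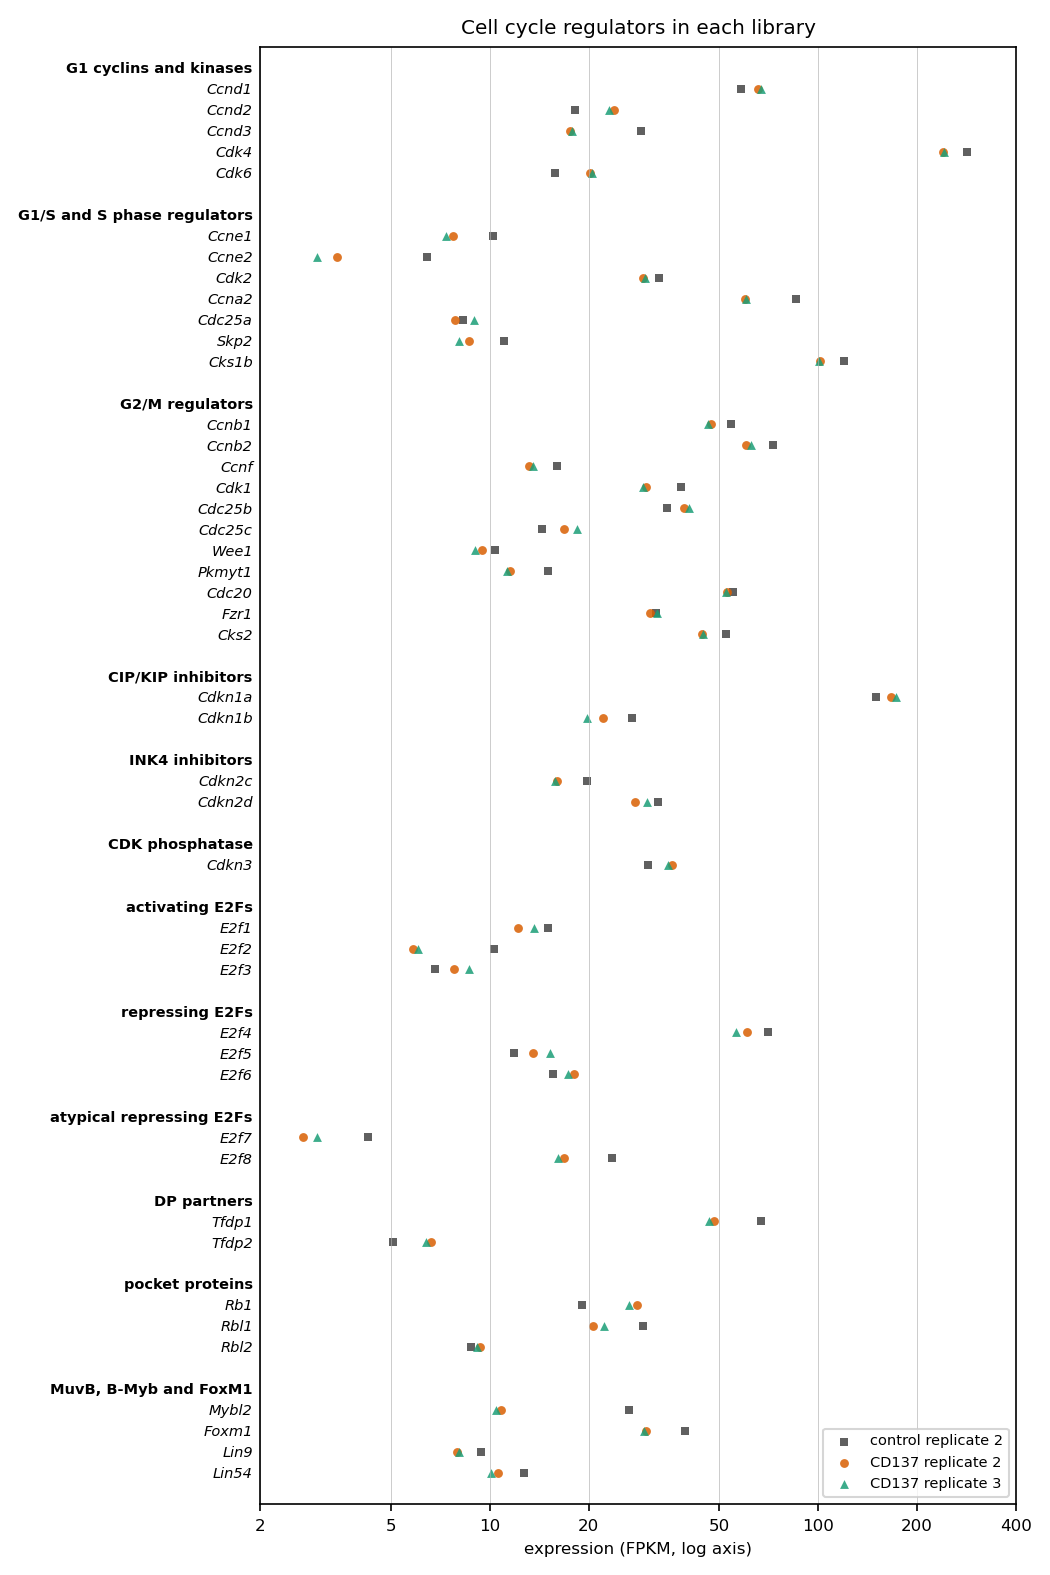
Expression (FPKM, log axis) of the 45 expressed members in control replicate 2 (squares), CD137 replicate 2 (circles) and CD137 replicate 3 (triangles), grouped by role. Cdk4 is highest at 239 to 284 FPKM and E2f7 and Ccne2 are lowest; the control point lies between the CD137 points only for Cdc25a and Fzr1.

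The CDK inhibitors did not move as a class. Of 7 inhibitors 4 were expressed, of which 1 rose, 2 fell and 1 did not pass (75% called, against 42.6% of all expressed genes). Cdkn1a, which encodes p21, was already high at 150 FPKM in the control and rose to 166 and 173 FPKM (1.13-fold, log2 change 0.17 ± 0.04 SE, limma adjusted p = 0.0240). Cdkn1b, which encodes p27, fell from 27.04 FPKM to 22.1 and 19.8 FPKM (0.774 of the control, limma adjusted p = 0.0208). Without the mean-variance trend neither Cdkn1a nor Cdkn1b passed (limma adjusted p = 0.0902 and 0.0523). The p21 transcript thus made up 84.7% of the summed FPKM of the pair in the control and 88.3% and 89.7% in the CD137 libraries.

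Among INK4 inhibitors, which bind Cdk4 and Cdk6, Cdkn2c (p18) fell from 19.8 FPKM to 16.0 and 15.8 FPKM (limma adjusted p = 0.0119). Counted as fragments it was lower, at 0.685 of the control by depth-scaled fragments against 0.804 by FPKM, from 661 fragments in the control and 447 and 446 in the CD137 libraries. Cdkn2d (p19) was at 32.5 FPKM against 27.8 and 30.2 FPKM and did not pass (limma adjusted p = 0.107). Cdkn2b (p15) was listed at 0.12 FPKM in CD137 replicate 2 and at 0 in the other libraries, and Cdkn1c (p57) at 0.03 FPKM in CD137 replicate 3 and at 0 in the others. Cdkn3, a phosphatase that removes the activating phosphate from Cdk2, rose from 30.3 FPKM to 35.9 and 34.8 FPKM (1.17-fold, limma adjusted p = 0.0222; 0.0561 without the mean-variance trend).

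Neither activating nor repressing E2Fs moved together. Of the activators, E2f2 fell from 10.3 FPKM to 5.84 and 6.07 FPKM (log2 change -0.70 ± 0.07 SE, limma adjusted p = 0.00264), the third lowest member. E2f1 was at 15.1 FPKM against 12.2 and 13.7 FPKM (limma adjusted p = 0.106), and E2f3 at 6.84 FPKM against 7.79 and 8.67 FPKM (limma adjusted p = 0.0849); neither passed, and they lay on opposite sides of the control. E2f3 passed when limma-voom was run on recovered fragments (adjusted p = 0.0363).

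Of the repressors other than the atypical pair, E2f4, the most abundant E2F transcript, fell from 70.3 FPKM to 60.6 and 56.4 FPKM (0.832 of the control, limma adjusted p = 0.0201; 0.0611 without limma's mean-variance trend). E2f5 was at 11.9 FPKM against 13.5 and 15.3 FPKM, and E2f6, a repressor that needs no pocket protein, at 15.5 FPKM against 18.1 and 17.3 FPKM; both were higher without passing (limma adjusted p = 0.0668 and 0.0657). The atypical repressors, which are themselves E2F targets and damp E2F activity late in S phase, both fell. E2f7 went from 4.25 to 2.71 and 2.98 FPKM, 0.669 of the control, and E2f8 from 23.5 to 16.9 and 16.2 FPKM, 0.702 of the control.

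In counts, 1 of 3 activators (33.3%) and 3 of 5 repressors (60%, atypical ones included) fell, against 18.2% of all expressed genes. Of the 8 E2Fs 0 rose, against 24.4% of all expressed genes. The median log2 change was -0.21 for the activators and -0.26 for the repressors. The ratio of the summed FPKM of the activators to that of all 5 repressors was 0.257 in the control, between the 0.231 and 0.263 of the CD137 libraries, so it did not separate the groups. Against E2f4 to E2f6 alone the ratio was 0.33 in the control and 0.28 and 0.32 in CD137 replicates 2 and 3, below the control in both, but the CD137 libraries differed more from each other than the nearer one did from the control. Within the activators, E2f2 went from 32.0% of the summed FPKM to 22.6% and 21.4%, and E2f3 from 21.2% to 30.2% and 30.5%.

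The partners of the E2Fs shifted between paralogs. Tfdp1, which encodes DP1, the main dimer partner, fell from 66.9 FPKM to 48.1 and 46.6 FPKM (log2 change -0.49 ± 0.05 SE, limma adjusted p = 0.00209). Tfdp2 (DP2), at a much lower level, rose from 5.08 FPKM to 6.62 and 6.41 FPKM (1.28-fold, limma adjusted p = 0.0288). The summed FPKM of both fell from 72.0 to 54.7 and 53.0.

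Among the pocket proteins, Rb1 had the largest increase of all members, from 19.2 FPKM to 28.0 and 26.6 FPKM (1.43-fold, log2 change 0.49 ± 0.06 SE, limma adjusted p = 0.00352). Rbl1, which encodes p107 and is an E2F target, fell from 29.4 FPKM to 20.6 and 22.3 FPKM (0.731 of the control, limma adjusted p = 0.00706). Rbl2, which encodes p130, was at 8.76 FPKM against 9.33 and 9.17 FPKM and did not pass. The 3 transcripts summed to 57.3 FPKM in the control and to 58.0 and 58.1 FPKM in the CD137 libraries, but Rb1 went from 33.4% of that sum to 48.3% and 45.8%, and Rbl1 from 51.3% to 35.6% and 38.4%. The leading pocket protein transcript was thus Rbl1 in the control and Rb1 in both CD137 libraries.

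**Figure D4:**
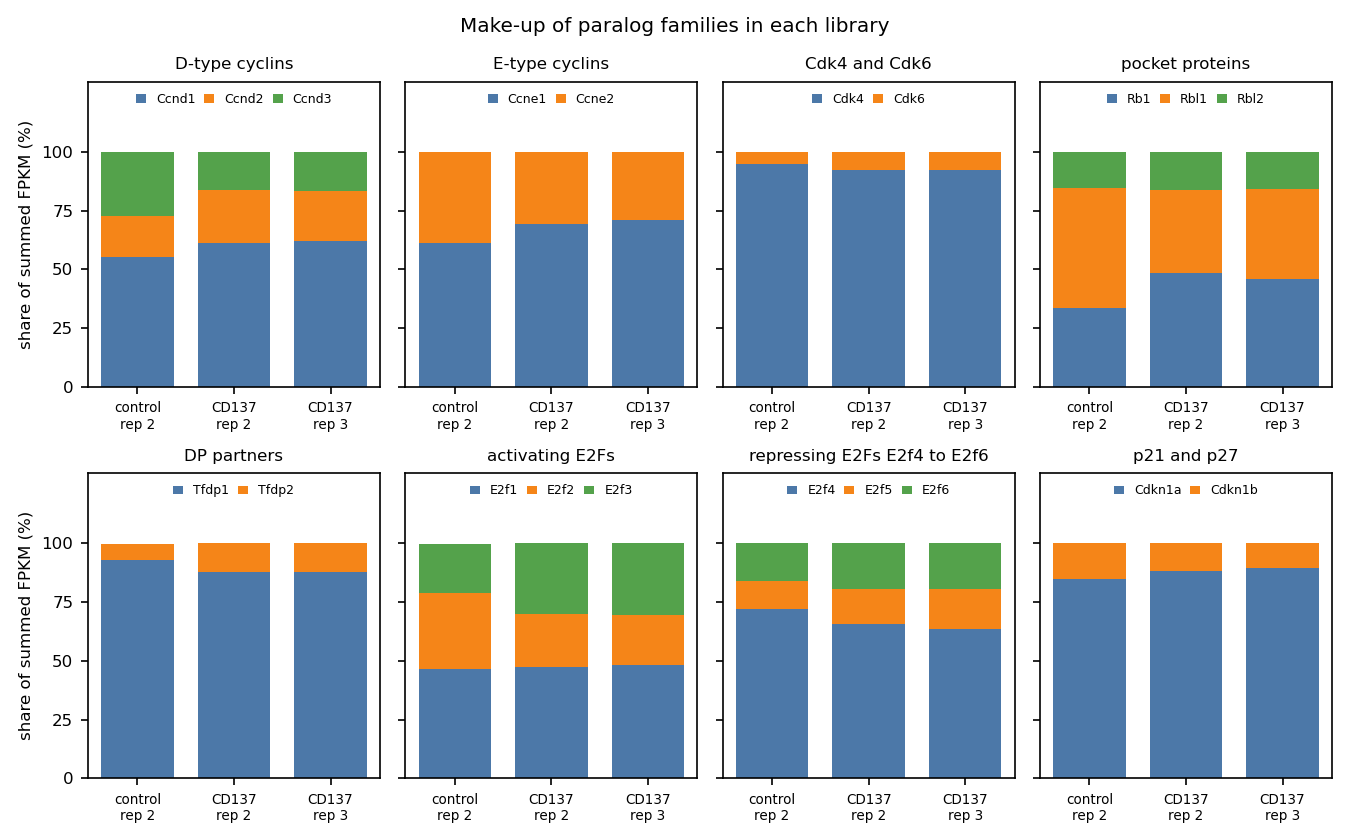
Share of the summed FPKM (percent) that each paralog takes in 8 families, per library, as stacked bars that add to 100 percent. In the CD137 libraries Ccnd3, Rbl1, E2f2 and Cdkn1b take smaller shares than in the control, and Rb1, Ccnd2, E2f3 and Tfdp2 larger ones.

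The transcription factors of G2 and mitosis were lower. Mybl2, which encodes B-Myb (gene ID 17865, chromosome 2 from 163054324 to 163084688 in mm10), was at 26.5 FPKM in the control and 10.8 and 10.4 FPKM in the CD137 libraries. This is 0.401 of the control, a log2 change of -1.24 ± 0.06 (SE, limma adjusted p = 0.000808) that rests on 1770, 722 and 698 fragments. Foxm1 fell from 39.4 FPKM to 30.0 and 29.5 FPKM (log2 change -0.40 ± 0.05 SE, limma adjusted p = 0.00381). Of the MuvB core, Lin54, its DNA-binding subunit, fell from 12.7 FPKM to 10.6 and 10.1 FPKM (limma adjusted p = 0.0261). Lin9 was at 9.42 FPKM against 7.93 and 8.04 FPKM, with a limma adjusted p = 0.0538. The CD137 libraries lay below the control for each of these 4 genes, and for 40.2% of all expressed genes.

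Promoter sequences are shown because E2F factors and DREAM bind near the start sites of many of these genes. RefSeq windows on GRCm38.p6, from 250 bases before to 50 after the start site, were matched for 35 of the 48 members (45 windows). They were searched on both strands for an E2F motif (the letters TTCCCGC, the variant TTGGCGC, the variant TTCGCGC or the variant TTGCCGC), the cell cycle homology region or CHR (the letters TTTGAA or the variant TTCGAA), and the CCAAT box (CCAAT). In 2 windows an E2F match overlapped a CCAAT match. The E2F motif was found for 8 of 19 members that fell (42.1%), 0 of 5 that rose and 3 of 9 that did not pass (33.3%), against 20.1% of 8687 expressed genes and 10.9% of all 27025 genes with a window. The CHR was found for 8 of 19, 2 of 5 and 3 of 9, against 17.0% and 21.7%. The CCAAT box was found for 14 of 19, 2 of 5 and 6 of 9, against 43.8% and 41.1%. The windows cover 19 of the 24 members that fell and 5 of the 9 that rose, without Rb1 and Ccnd2. These are matches of letters, given as a description.

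The upstream 250 bases are printed for the 3 members with the largest falls and the 2 with the largest rises that have a window: Mybl2 at chr2:163054385-163054634, E2f2 at chr4:136172024-136172273, Ccnd3 at chr17:47504801-47505050, Cdk6 at chr5:3343643-3343892 and Tfdp2 at chr9:96258455-96258704, all on the plus strand. E2f2, Ccnd3 and Tfdp2 have 2 windows each, and of these the one nearer the start of the gene is printed. By the deposited coordinates the printed window of Tfdp2 still lies far inside the gene, which starts at 96196245. The windows of Mybl2 (gene from 163054324) and of E2f8 (added below, gene up to 48882073) also lie inside the gene, close to its start. Cdk1 (chr10:69352913-69353162) and E2f8 (chr7:48881597-48881846), both on the minus strand, were added after the matches were seen because both fell and their windows hold all 3 motifs. Capitals mark E2F, CHR and CCAAT matches, 5′ to 3′ on the gene's strand:
Mybl2: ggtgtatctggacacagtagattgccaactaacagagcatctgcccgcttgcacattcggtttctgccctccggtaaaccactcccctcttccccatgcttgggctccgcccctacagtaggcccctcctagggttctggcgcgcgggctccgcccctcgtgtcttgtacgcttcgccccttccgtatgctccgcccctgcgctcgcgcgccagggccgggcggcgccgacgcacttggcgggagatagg
E2f2: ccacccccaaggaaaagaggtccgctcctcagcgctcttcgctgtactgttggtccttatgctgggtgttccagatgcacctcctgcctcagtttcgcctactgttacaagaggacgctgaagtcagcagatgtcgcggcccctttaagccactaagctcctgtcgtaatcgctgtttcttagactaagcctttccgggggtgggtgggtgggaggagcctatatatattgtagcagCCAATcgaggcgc
Ccnd3: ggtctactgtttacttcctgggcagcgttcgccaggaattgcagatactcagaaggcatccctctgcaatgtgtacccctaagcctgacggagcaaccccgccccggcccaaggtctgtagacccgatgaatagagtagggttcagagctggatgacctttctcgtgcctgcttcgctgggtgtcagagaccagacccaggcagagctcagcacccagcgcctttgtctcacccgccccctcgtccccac
Cdk6: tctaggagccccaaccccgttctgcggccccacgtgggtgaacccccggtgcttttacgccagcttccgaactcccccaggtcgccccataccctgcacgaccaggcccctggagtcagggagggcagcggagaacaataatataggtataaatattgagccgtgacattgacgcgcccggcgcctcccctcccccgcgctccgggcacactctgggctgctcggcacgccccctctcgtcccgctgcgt
Tfdp2: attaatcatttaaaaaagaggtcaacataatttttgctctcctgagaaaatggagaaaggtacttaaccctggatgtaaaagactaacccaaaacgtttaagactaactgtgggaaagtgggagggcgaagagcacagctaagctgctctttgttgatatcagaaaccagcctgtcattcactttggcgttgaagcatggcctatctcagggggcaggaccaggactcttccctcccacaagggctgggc
Cdk1: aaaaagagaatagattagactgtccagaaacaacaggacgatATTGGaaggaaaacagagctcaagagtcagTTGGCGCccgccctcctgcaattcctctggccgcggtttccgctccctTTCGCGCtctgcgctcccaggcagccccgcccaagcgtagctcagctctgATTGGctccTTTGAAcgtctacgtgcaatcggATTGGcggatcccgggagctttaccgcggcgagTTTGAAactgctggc
E2f8: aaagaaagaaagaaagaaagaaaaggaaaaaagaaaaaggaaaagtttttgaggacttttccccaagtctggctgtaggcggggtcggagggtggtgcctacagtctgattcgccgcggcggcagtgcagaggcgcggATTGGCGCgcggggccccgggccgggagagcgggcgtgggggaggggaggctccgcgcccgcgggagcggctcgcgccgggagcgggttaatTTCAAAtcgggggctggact

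The windows of Mybl2, Ccnd3, Cdk6 and Tfdp2 printed here hold none of the letters searched, which does not exclude other forms of these motifs. Near its end the Mybl2 stretch reads ttggcgg, which differs from the variant TTGGCGC in the last base only and so was not counted. Mybl2 and Ccnd3 fell, and Cdk6 and Tfdp2 rose. The printed window of E2f2 holds a CCAAT box upstream and an E2F match 41 bases past the start site, beyond the part shown. Of the windows not printed, that of E2f2 holds a CHR match at -31 and 3 CCAAT matches, that of Ccnd3 a CCAAT match at -108, and that of Tfdp2 none. In Cdk1 the 2 E2F matches begin at -178 and -130 from the start site and the 2 CHR matches at -71 and -15. In E2f8 an E2F match begins at -111, overlapping a CCAAT match on the other strand that begins at -112, and a CHR match begins at -20.

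Other genes of the cell cycle were taken from lists by function. Of 18 genes of replication licensing and S phase 17 fell and 0 rose (median log2 change -0.68), with Mcm6, a subunit of the replicative helicase, going from 89.4 FPKM to 32.7 and 34.5 FPKM and Cdc6, which helps load it, from 13.7 FPKM to 6.10 and 6.83 FPKM. Of 17 checkpoint and mitotic kinases 13 fell and 0 rose (median -0.35). Bub1, a spindle checkpoint kinase, fell from 51.4 FPKM to 31.8 and 32.6 FPKM, and Cdc7, the kinase that fires replication origins, from 9.23 FPKM to 5.90 and 5.73 FPKM. These shares of 94.4% and 76.5% compare with 18.2% of all expressed genes. The lists were chosen with earlier results of these data known, so the shares are not independent support.

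Cyclins and CDKs further from the core moved in both directions. Among 26 expressed cyclins and CDKs outside the core cycle 7 rose and 3 fell (38.5% called, against 42.6% of all expressed genes). Ccng2, which encodes an unconventional cyclin tied to cell cycle exit, fell from 43.7 FPKM to 22.1 FPKM in both CD137 libraries (log2 change -0.95), whereas its paralog Ccng1, a p53 target, rose from 36.0 to 48.6 and 47.0 FPKM. Ccnh, the cyclin of the CDK-activating kinase, rose from 34.7 to 52.0 and 48.3 FPKM, and Ccnk, a partner of Cdk12, fell from 32.9 to 26.2 and 26.7 FPKM.

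Of 23 subunits and regulators of the APC/C and SCF ubiquitin ligases 4 rose and 3 fell (30.4% called, against 42.6% of all expressed genes). Fbxo5, which encodes the APC/C inhibitor Emi1, fell from 50.6 FPKM to 33.0 and 32.2 FPKM, and the APC/C subunit Anapc5 from 114 to 85.4 and 89.0 FPKM, while the subunits Anapc16 and Anapc10 rose 1.28-fold and 1.29-fold. Of 4 expressed genes of DREAM and the Myb family outside the members 25% were called, also below that share. Rbbp4, a histone-binding MuvB subunit, fell to 0.905 of the control (limma adjusted p = 0.0466) and the other 3 did not pass. In the Myc network, 2 of 10 expressed genes rose and 4 fell (60% called, against 42.6% of all expressed genes). Myc rose from 2.56 FPKM to 6.57 and 6.49 FPKM, whereas Mycn, at 241 FPKM in the control, and Max, the dimer partner of both, fell to 0.876 and 0.789 of the control; these last 2 were named after their values were seen. The Myc antagonists of the MXD family went in both directions: Mxd4 rose 1.60-fold, Mxd3 and Mxi1 fell to 0.508 and 0.627 of the control, and Mxd1 did not pass.

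Fragment counts bear on how firmly the small changes can be read. They were recovered for 44 of the 45 expressed members, all but Cdk2. By the Poisson p-values of the authors' deposited table, which compare the fragments of 2 libraries, 38 members had an adjusted p under 0.05 for CD137 replicate 2 against the control and 36 for replicate 3 (54.9% and 55.1% of all expressed genes). The same test in the authors' deposited table gave it to 0 members between the CD137 libraries (1.91% of all expressed genes). In both comparisons with the control 33 members passed in the authors' deposited table (47.0% of all expressed genes). Of these, 32 also passed in limma; Lin9 passed only in the authors' deposited table and Cdkn3 only in limma. That test compares libraries, not conditions, and covers counting error only.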

How the data were processed

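RNA selected with oligo-dT beads was sequenced, per the labels' protocols. Values are FPKM, 1 per gene and library, as the authors deposited them, per the file headers. The submitters' processing notes name HISAT2, Bowtie2, RSEM and mm10, with no role given. Whether counting used strand is not given in the sources used here, and so reads of overlapping genes on opposite strands may be mixed. The deposited log2 ratios equal the log2 ratio of the FPKM columns within 0.0001, and the deposited p-values and adjusted values (which exceed 1 for some genes and were treated as a score) come from a Poisson test of 2 libraries, per the file headers. The table lists 21990 genes, 5987 without a value; 1 broken line was left out.

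Groups and replicate numbers come from the sample titles. limma 3.58.1 (R 4.3.3; mean-variance trend) was fitted to log2(FPKM + 1) of the genes that reached 1 FPKM in any library, with 1 residual degree of freedom; the pseudocount understates changes of low genes. Folds are ratios of mean FPKM. Whole fragments were solved from the authors' p-values (97.2% of 10705 genes), and limma-voom on them was added after seeing the data. The limma fit and the fragment recovery were tested on simulated data. For the fit, 50 of 10403 genes were changed at each fold. It recovered 2% of the 1.1-fold, 12% of the 1.2-fold, 74% of the 1.5-fold and 92% of the 2-fold changes, with 0 false calls. Small changes were mostly missed there, so a member that did not pass may still differ. Far fewer genes changed in the simulation than were called in the data, so these shares may not carry over. The simulated control was given the same spread as that between the CD137 libraries. Its 0 false calls therefore do not cover differences between cultures or lines. Coordinates overlapped RefSeq's GRCm38.p6 genes for all 48 members.

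The members and lists were chosen with earlier results of these data known. All members may be named; of each other list, up to 2 genes with the largest increase and 2 with the largest decrease past the threshold. Alternatives were another pseudocount, other filters, a rescaling, no trend and each CD137 library alone.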

Additional observations from a re-analysis of the deposited data

How the results depend on the processing

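The counts of 9 members higher and 24 lower stayed within 1.5 times with a pseudocount of 0.1 (9 and 24), genes at a mean of 5 FPKM or more (10 and 23), rescaling to equal median ratios (9 and 27) and limma-voom on recovered fragments (10 and 25, added after seeing the data). Without the mean-variance trend 4 were higher and 21 lower; Ccnd1, Cdc25b, Cdc25c, Cdkn1a, Cdkn3, Ccnb1, Cdkn1b and E2f4 no longer passed. Without a filter, limma on all genes with a value called 0 members higher and 0 lower, and 0 of 16003 genes higher and 0 lower; at an unadjusted p under 0.05 it had 3013 genes higher and 2268 lower. The cause was not tested. Cdc25a, which did not pass, reversed to -0.01 with rescaling. Cdk2 (adjusted p = 0.0313) and Cdkn2d (adjusted p = 0.0481) passed only with rescaling. Lin9 passed in 3 alternatives (adjusted p of 0.0303 to 0.0465) and E2f5 with the 5 FPKM minimum (adjusted p = 0.0457). No paired analysis was possible because the groups analysed share only replicate number 2. A fit without the control library could not be made. With either CD137 library alone, no called member changed direction, but this outcome was fixed beforehand. For every called member both CD137 values were above the control value, or both were below it. Leaving out 1 CD137 library therefore cannot test the direction of the calls.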
